A study of Homo sapiens with 5 samples.

Results

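The 6 genes described here are imprinted growth genes, of which each parent's chromosome copy is expressed differently. They were IGF2, H19, KCNQ1OT1 and CDKN1C at 11p15 and DLK1 and MEG3 at 14q32, taken from the 64449 annotated genes. An SF-1 peak was assigned to a gene when its centre lay within 100 kb of the gene body. By this rule 16 of the 30372 peaks in 4 lists belonged to the 6 genes: 2 lay at 11p15 and 14 at 14q32.

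Chromatin immunoprecipitation and sequencing (ChIP-seq) located the nuclear receptor SF-1 (NR5A1) in H295R/TR SF-1 cells. These cells are a subclone of the human adrenocortical tumor line H295R, and doxycycline induces SF-1 from a transgene in them. The basal groups received no doxycycline according to the labels and the overexpressed groups received it for 3 days. Each dosage was precipitated with a Millipore and with a Perseus Proteomics antibody to SF-1. Each of the 4 groups was 1 list made from 3 libraries, so the spread between libraries was not measurable and no test between groups was made. Both basal and overexpressed cells were the same subclone and carried the same transgene. The lists held 4393 peaks for basal Millipore, 11910 for overexpressed Millipore, 6616 for basal Perseus and 7453 for overexpressed Perseus, or 1.54, 4.17, 2.31 and 2.61 peaks per Mb of known sequence. Read depths are unknown and a list with more reads can hold more peaks, so a peak missing from a list is not evidence of no binding. The input DNA, from 2 libraries, was not analysed here. SF-1 levels and the parental origin of the DNA were not measured by the lists.

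SF-1 is a master regulator of adrenal and gonadal development and of steroid hormone synthesis, and it binds DNA as a monomer. Imprinted genes occur in clusters in which DNA methylation inherited from one parent decides which copy is read. At 11p15 the fetal growth factor IGF2 is expressed from the paternal copy, while the long non-coding RNA H19 and the cell cycle inhibitor CDKN1C are expressed from the maternal one. IGF2 is commonly abundant in adrenocortical carcinoma. At 14q32 the paternal copy expresses DLK1, a membrane protein related to Notch ligands that is found in steroid-producing and progenitor cells, and the maternal copy expresses the long non-coding RNA MEG3.

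The sequences under the peaks that the comparisons rest on are given first. They are plus strand, 5′ to 3′, from GRCh37 (hg19). The SF-1 consensus searched was NCAAGGNCN, in which the first and seventh letters are C or T and the last is A or G, on either strand and without mismatch. Capitals mark a match, which reads as the reverse complement where the match was on the minus strand. The first sequence is the only place near the 6 genes where peaks of several lists met, the next 3 are other places with a consensus in or at the edge of a peak, and the last 3 are peaks at MEG3, where none was found.
DLK1 upstream site, chr14:101177451-101177699, match on the plus strand: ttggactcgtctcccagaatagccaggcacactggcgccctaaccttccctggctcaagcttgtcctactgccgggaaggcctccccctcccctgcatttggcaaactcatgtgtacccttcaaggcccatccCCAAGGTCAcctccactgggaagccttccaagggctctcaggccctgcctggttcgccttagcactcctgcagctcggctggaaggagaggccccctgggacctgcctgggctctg
basal Perseus peak with 50 bases on each side, chr14:101155001-101155199, match on the minus strand: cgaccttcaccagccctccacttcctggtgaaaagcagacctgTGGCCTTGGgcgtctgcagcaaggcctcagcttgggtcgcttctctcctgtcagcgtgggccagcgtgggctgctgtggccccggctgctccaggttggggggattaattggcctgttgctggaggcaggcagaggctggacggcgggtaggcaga
overexpressed Millipore peak upstream of DLK1, chr14:101147001-101147149, match on the minus strand: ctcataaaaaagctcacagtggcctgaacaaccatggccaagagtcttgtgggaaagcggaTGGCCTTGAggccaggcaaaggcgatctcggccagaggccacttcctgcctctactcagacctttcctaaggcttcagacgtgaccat
overexpressed Millipore peak past H19, chr11:1969401-1969599, match on the minus strand: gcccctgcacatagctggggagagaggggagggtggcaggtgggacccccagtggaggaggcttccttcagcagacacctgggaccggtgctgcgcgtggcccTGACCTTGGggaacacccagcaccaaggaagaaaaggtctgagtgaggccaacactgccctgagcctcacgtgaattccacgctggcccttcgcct
overexpressed Millipore peak in the long form of MEG3, chr14:101274101-101274299: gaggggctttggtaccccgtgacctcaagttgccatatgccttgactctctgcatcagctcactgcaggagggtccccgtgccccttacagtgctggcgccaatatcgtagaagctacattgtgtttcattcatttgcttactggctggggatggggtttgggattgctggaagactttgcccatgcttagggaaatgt
overexpressed Perseus peak in MEG3, chr14:101304151-101304349: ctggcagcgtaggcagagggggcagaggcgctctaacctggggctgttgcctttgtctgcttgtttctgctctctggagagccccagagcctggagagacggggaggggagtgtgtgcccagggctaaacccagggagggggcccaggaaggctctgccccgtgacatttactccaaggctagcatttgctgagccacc
overexpressed Millipore peak in MEG3, chr14:101304551-101304799: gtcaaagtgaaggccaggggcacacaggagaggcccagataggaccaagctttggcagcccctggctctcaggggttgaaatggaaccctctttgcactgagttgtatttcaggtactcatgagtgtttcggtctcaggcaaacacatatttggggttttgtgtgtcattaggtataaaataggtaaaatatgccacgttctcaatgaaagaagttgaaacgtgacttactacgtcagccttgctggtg

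Over the 4 lists the peaks lay near DLK1 and MEG3, while 3 of the 4 genes at 11p15 had none. In the order basal Millipore, overexpressed Millipore, basal Perseus and overexpressed Perseus, MEG3 had 1, 9, 1 and 3 peaks. DLK1 had 1, 6, 1 and 2 peaks, all of which also lay within 100 kb of MEG3 because the windows of these neighbours overlap. H19 had 0, 2, 0 and 0 peaks. IGF2, KCNQ1OT1 and CDKN1C had 0 peaks in each of the 4 lists. The members with a peak were 2, 3, 2 and 2 of 6. Of all annotated genes, 29.7%, 55.5%, 41.4% and 45.1% had a peak in these lists, so the count of members with a peak did not stand out from the background. The median over the 6 members was 0, 1, 0 and 0 peaks, the same as the median over all genes.

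**Figure D1:**
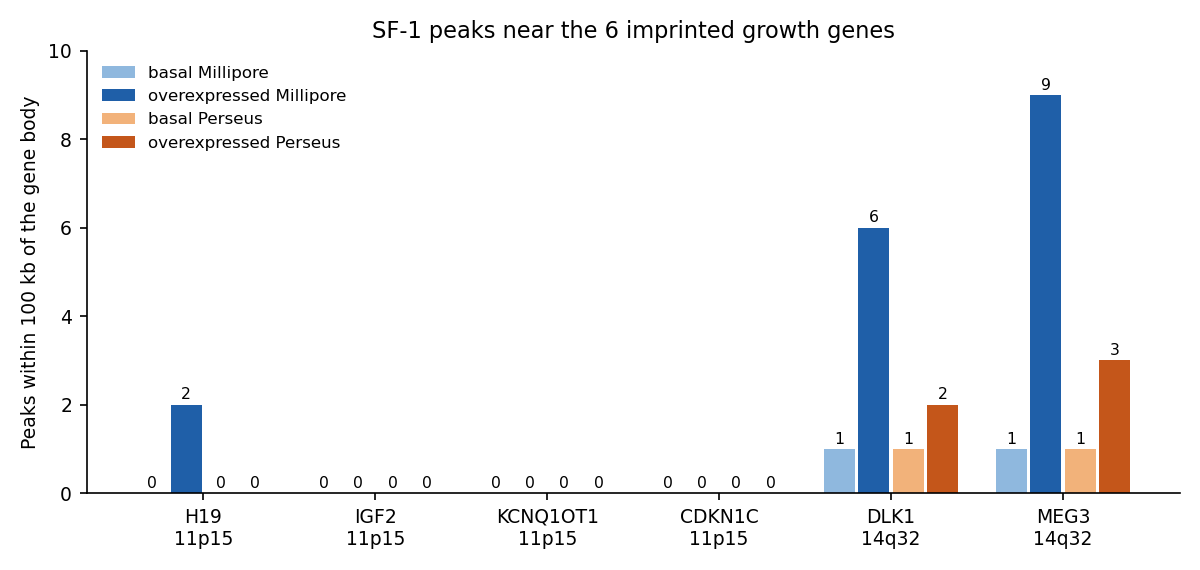
Number of SF-1 peaks (y axis) with a centre within 100 kb of each gene body (x axis), with 1 bar for each of the 4 peak lists. MEG3 and DLK1 had peaks in every list, with 9 and 6 in overexpressed Millipore, and IGF2, KCNQ1OT1 and CDKN1C had 0 in every list. The MEG3 body includes its long annotated form, and both basal peaks lay more than 100 kb from the RefSeq start of MEG3.

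The 9 peaks of MEG3 in overexpressed Millipore carried an exact Poisson interval of 4.12 to 17.1, which like every interval here covers counting error over peaks only. As many or more were found at 1.73% of all genes. Of these 9 peaks 5 lay upstream of DLK1, and within 50 kb MEG3 had 0, 4, 0 and 2 peaks in the 4 lists and DLK1 had 1, 5, 1 and 1. The MEG3 window was drawn around its long annotated form. From the RefSeq start of MEG3, described below, those 5 peaks lay 114 to 145 kb away. The basal peaks lay 115 kb from it in Millipore and 137 kb in Perseus, so neither was within 100 kb of that start. For the 6 peaks of DLK1 the interval was 2.2 to 13.1, and 5.03% of genes had as many or more. In overexpressed Perseus the 3 peaks of MEG3 (0.619 to 8.77) were matched or exceeded at 11.2% of genes, and the 2 of DLK1 (0.242 to 7.22) at 22.1%. The single peak of either gene in each basal list (0.0253 to 5.57) was matched or exceeded at 29.7% of genes in Millipore and 41.4% in Perseus. The 2 peaks of H19 in overexpressed Millipore were matched or exceeded at 31.5% of genes. A count of 0 allows up to 3.69 peaks by the same interval. The windows were of unlike length, from 203 kb for CDKN1C to 303 kb for KCNQ1OT1, and the gene with the longest window had no peak.

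By the 100 kb rule both antibodies gave more peaks at DLK1 and MEG3 with overexpressed than with basal SF-1. For DLK1 with Perseus this rested on a peak 99.7 kb from the gene, and at 50 kb DLK1 had 1 peak in both Perseus lists. With Millipore 3 of 6 members (H19, DLK1 and MEG3) had more peaks in the overexpressed list, beside 47.2% of all genes. With Perseus 2 of 6 (DLK1 and MEG3) did, beside 26.2%. All peaks of DLK1 were also counted for MEG3, so these 2 genes are not separate cases. The overexpressed lists were also the longer ones for both antibodies, and the part of list length in these counts was not tested further than by cutting each list to the shortest.

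The question of each region as a whole was answered with the joined windows. The 14q32 region spanned 335 kb at chr14:101092042-101427368 and held 1, 9, 1 and 3 peaks in the same order of lists. At the mean density of each list, 0.515, 1.4, 0.776 and 0.874 peaks would fall in a stretch of this length. The overexpressed Millipore density was thus 26.8 peaks per Mb (12.3 to 50.9), 6.44 times that of its list (2.95 to 12.2). In overexpressed Perseus it was 8.95 per Mb (1.84 to 26.1), 3.43 times that of its list with an interval from 0.708 to 10. The ratios in the basal lists were 1.94 (0.0491 to 10.8) for Millipore and 1.29 (0.0326 to 7.18) for Perseus. The interval of the ratio excluded 1 in overexpressed Millipore and included it in the other 3 lists. With peaks within 500 bp merged, the region held 7 peaks in overexpressed Millipore, and the other 3 lists were unchanged. The interval treats peaks as independent and the members were chosen with earlier results of these data known, so it is not a test. Peaks lay upstream of DLK1 and inside or past MEG3, and none lay in the DLK1 body.

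The windows at 11p15 formed 2 stretches, chr11:1916396-2279621 with H19 and IGF2 and chr11:2518538-3007005 with KCNQ1OT1 and CDKN1C, 852 kb in all. They held 0, 2, 0 and 0 peaks, where the mean densities of the lists would place 1.31, 3.55, 1.97 and 2.22. The 2 peaks of overexpressed Millipore gave 2.35 peaks per Mb (0.284 to 8.48), 0.564 times the density of the list (0.0683 to 2.04). In the lists without a peak the upper bound of the ratio was 2.82 in basal Millipore, 1.87 in basal Perseus and 1.66 in overexpressed Perseus, so a density equal to that of the list was not excluded in any of the 4. The G+C content was 55.4% in the first stretch, 52.5% in the second and 49.9% at 14q32. It lay above the 40.9% of the genome in all 3, and none of them held unknown bases. The peaks themselves had a mean G+C content of 46.5%, 55.4%, 52.3% and 54.2% in the 4 lists. The density ratios of both regions were not adjusted for G+C content.

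DLK1 (ENSG00000185559, plus strand, chr14:101192042-101204561) had its best-ranked peaks upstream. A site about 14.6 kb before the outermost start was found in 3 lists and was the only one of 14 sites near the 6 genes to lie in more than 1. In overexpressed Millipore the peak was at chr14:101177151-101177699 with a width of 549 bp and rank 139, the best 1.17% of that list. In overexpressed Perseus it was at chr14:101177151-101177549 with a width of 399 bp and rank 1005, at 13.5% of the list. In basal Millipore it was at chr14:101177451-101177549 with a width of 99 bp and rank 2979, at 67.8% of the list. The peak was thus ranked in the worse part of its list at basal dosage, and ranks of different lists are not on one scale. The nearest basal Perseus peak lay 22325 bp away. All 3 peaks contained the stretch chr14:101177451-101177549 of 99 bp, which held no strict consensus. The match CCAAGGTCA, at chr14:101177584-101177592 on the plus strand, lay inside the wide overexpressed Millipore peak and 35 bp beyond the end of the other two. Positions in the lists fell on a grid of 50 bp, so a distance of this size is near the limit of what the peak edges resolve. The site was intergenic.

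The other peaks upstream of DLK1 were each in 1 list. In overexpressed Millipore, a peak at chr14:101178151-101178499 ranked 776 (6.52% of the list) and one at chr14:101159401-101159949 ranked 589 (4.95%). The latter was 549 bp wide, as wide as the site nearer to the gene. A peak at chr14:101147001-101147149, with its centre 44967 bp before the outermost start, ranked 2356 (19.8%) and held the consensus TCAAGGCCA on the minus strand at chr14:101147062-101147070. The last of them, at chr14:101154451-101154549, ranked 11776 (98.9%), nearly the end of the list. It lay in an exon of the lncRNA gene ENSG00000289278.

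The single basal Perseus peak of DLK1 lay in the same lncRNA gene, at chr14:101155051-101155149 and 36942 bp before the DLK1 start. It ranked 4939, at 74.7% of its list, and its centre was 600 bp from that of the overexpressed Millipore peak, so the peaks did not overlap. A match CCAAGGCCA on the minus strand, at chr14:101155044-101155052, crossed its edge and was counted only when the peak was widened. The basal peaks of the 2 antibodies near DLK1 were therefore different sites. No peak in any list lay between the end of DLK1 and the outermost start of MEG3, over 41.2 kb.

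**Figure D2:**
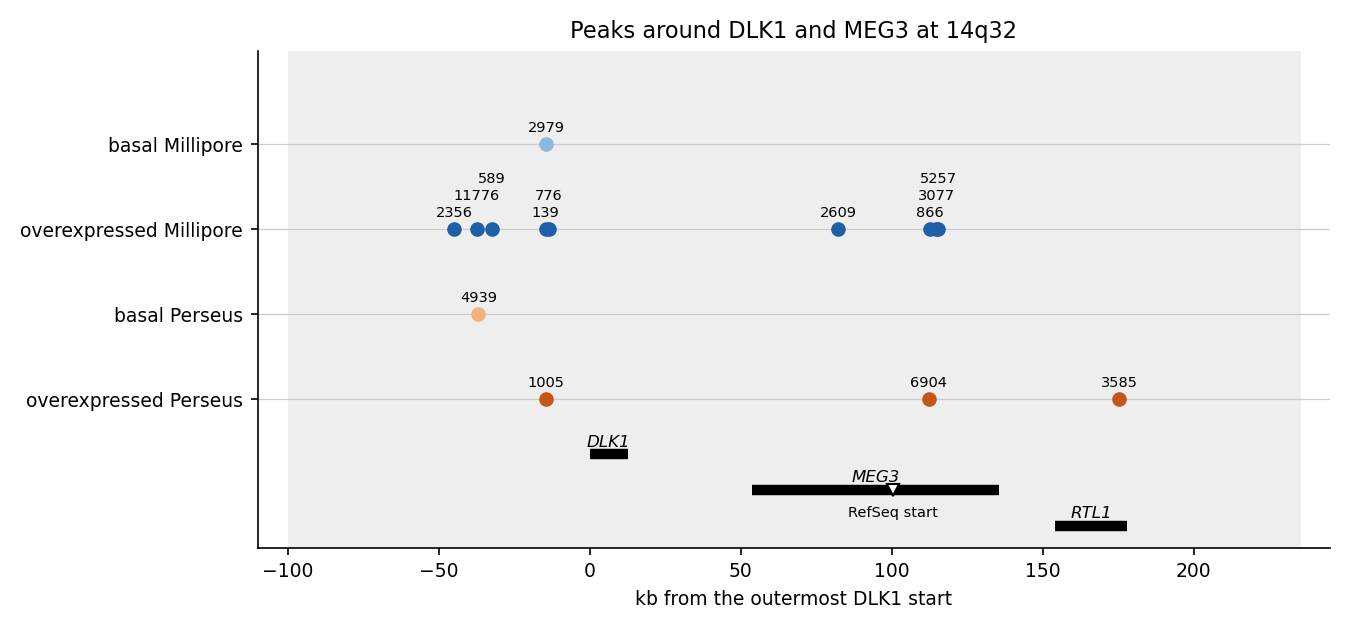
SF-1 peaks (points, 1 line for each list) by distance in kb from the outermost DLK1 start, with the rank of each peak above it, gene bodies as black bars and the joined 100 kb windows in grey. The peaks of 3 lists met about 14.6 kb before DLK1, and the triangle marks the start of MEG3 in RefSeq.

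MEG3 (ENSG00000214548, plus strand, chr14:101245747-101327368) is annotated with 50 transcripts. The RefSeq start, placed on GRCh37 by an exact match of the RefSeq promoter sequence, was at chr14:101292445, and 27 transcripts began within 100 bp of it. A longer annotated form began far upstream. No peak of any list lay at the RefSeq start itself. The nearest upstream was an overexpressed Millipore peak at chr14:101274101-101274299, rank 2609 (21.9% of the list), 18.2 kb before it and in an intron of the long form. It was the only peak over the 87.9 kb between the end of DLK1 and the RefSeq start of MEG3, where the other 3 lists had 0.

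Downstream of the RefSeq start, 3 overexpressed Millipore peaks followed each other in MEG3 introns. They were at chr14:101304551-101304799 with rank 866 (7.27%), chr14:101306601-101306849 with rank 3077 (25.8%) and chr14:101307251-101307549 with rank 5257 (44.1%). Their distances from the start were 12.2, 14.3 and 15 kb. An overexpressed Perseus peak at chr14:101304151-101304349 ranked 6904 (92.6%) and lay 11.8 kb after the start. Its centre was 425 bp from that of the nearest Millipore peak. Both antibodies thus had a peak in intron sequence of MEG3 here at overexpressed dosage, but the peaks did not overlap. No basal peak of either antibody lay in the MEG3 body. These peaks cannot be assigned to MEG3 alone, since ENSG00000258663 and MIR493HG have introns over the same bases. The remaining overexpressed Perseus peak, at chr14:101367151-101367299, ranked 3585 (48.1%) and lay 39.9 kb past the MEG3 body, in introns of MEG8, MIR493HG and RTL1. Its G+C content of 38.9% was the lowest of the 16 peaks, which reached 68.7% in the basal Perseus peak.

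At 11p15, H19 (ENSG00000130600, minus strand, chr11:2016396-2025782) had 2 peaks, both in overexpressed Millipore and both past its 3′ end in an intron of MRPL23, a gene for a mitochondrial ribosomal protein. The peak at chr11:1973601-1973749 ranked 3836 (32.2%) and was 42.7 kb from the H19 body. The peak at chr11:1969401-1969599 ranked 5471 (45.9%) and was 46.9 kb away. The latter held CCAAGGTCA on the minus strand at chr11:1969504-1969512, 8 bp from its centre. No other list had a peak within 100 kb of either.

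IGF2 (ENSG00000167244, minus strand, chr11:2150342-2179621), the imprinted fetal growth factor, was without a peak in every list. The same held for KCNQ1OT1 (ENSG00000269821, minus strand, chr11:2618538-2721233), the long non-coding RNA of the neighbouring imprinted cluster, and for CDKN1C (ENSG00000129757, minus strand, chr11:2904443-2907005). The nearest peak to CDKN1C was just outside the window, at 115 kb, in overexpressed Millipore at chr11:3021601-3021749 with rank 8699. The 4 gene bodies lay in 1 stretch free of peaks in every list, chr11:1973750-3021600, which is 1.05 Mb long and was chosen after the values were seen. Between adjacent peaks of the 4 lists together, 199 of 25669 stretches were at least as long, and the median was 44.3 kb. The stretch held 37 genes, 16 of them protein-coding, or 15.3 coding genes per Mb beside 7.05 in the genome. At the mean densities 11.1 peaks in all would fall in a stretch of this length, a sum over lists that share some peaks. The stretch was picked for holding none, so this number is no test. Stretches of this length or longer held 8.79% of all genes and 6.34% of protein-coding genes.

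**Figure D3:**
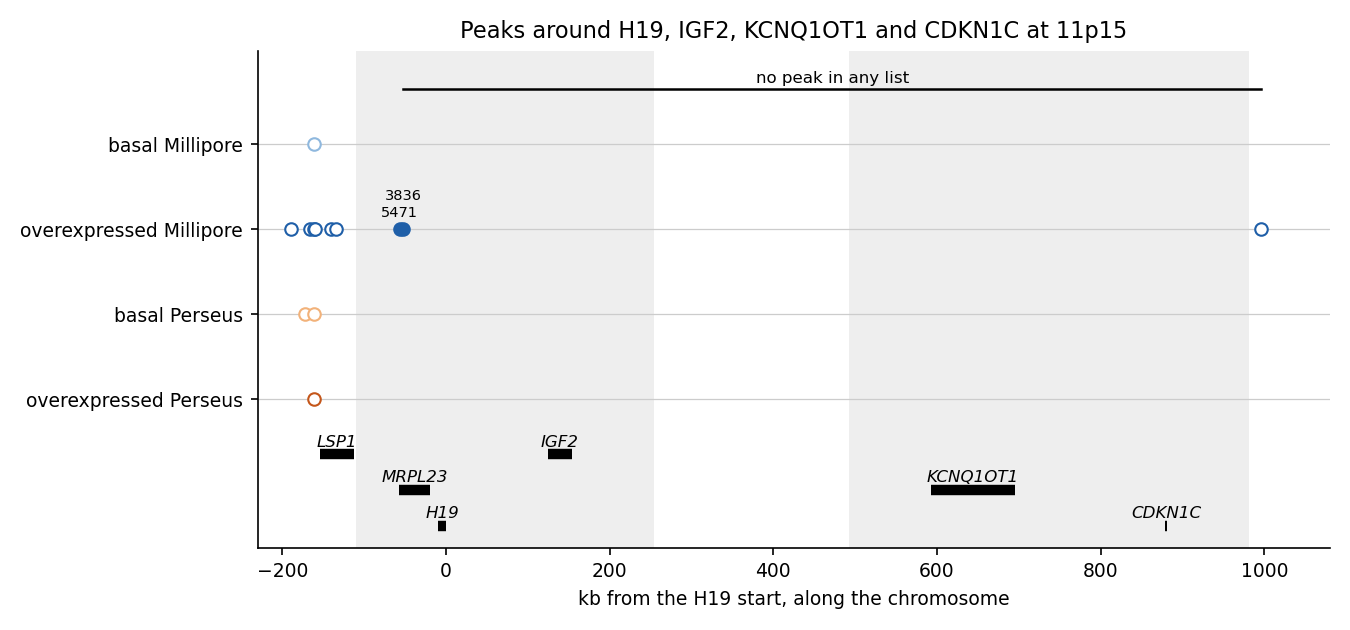
SF-1 peaks by distance in kb from the H19 start (x axis), with filled points for the peaks within 100 kb of a member, labelled with their rank, open points for peaks farther away, and the 100 kb windows in grey. Only 2 peaks, both overexpressed Millipore, fell in the windows, and the stretch of 1.05 Mb marked at the top held none.

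Beyond the 100 kb limit, past the 3′ end of H19, lay a place with a peak in all 4 lists, 152 kb from the H19 body and intergenic. It ranked 18 in basal Millipore at chr11:1863751-1864249, 260 in overexpressed Millipore at chr11:1863851-1864349, 276 in basal Perseus at chr11:1863851-1864299 and 3792 in overexpressed Perseus at chr11:1863901-1864099. Each of these 4 peaks held the SF-1 consensus. It was nearer to LSP1, a gene for a leukocyte actin-binding protein, than to H19. Between 100 and 200 kb from the members the lists held 12 peaks, of which the one at 14q32 lay 175 kb past MEG3 in an exon of MEG8 (chr14:101502351-101502549, overexpressed Millipore rank 1817). None of the peaks within 100 kb of a member lay farther than 46.9 kb from the member nearest to it. Several of them were near the limit of a second member. For MEG3, the overexpressed Millipore peaks upstream of DLK1 at chr14:101147001-101147149 and chr14:101154451-101154549 were just inside, at 98.7 and 91.2 kb, and the basal Perseus peak was at 90.6 kb. For DLK1, the overexpressed Perseus peak in a MEG3 intron was just inside at 99.7 kb. The 3 overexpressed Millipore peaks that follow it were just outside at 100.1, 102.2 and 102.8 kb.

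The 16 peaks near the 6 genes were mostly in the better-ranked part of their lists. The better-ranked 50% of a list held 12 of them, and the best 10% held 4, all in overexpressed Millipore and all at 14q32. The single peaks of the basal lists were both in the worse-ranked part. Of the 16 peaks, 10 were wider than the 149 bp that was the median of every list, 8 of them in overexpressed Millipore. The share of all peaks wider than this was not computed, so the count has no background.

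**Figure D4:**
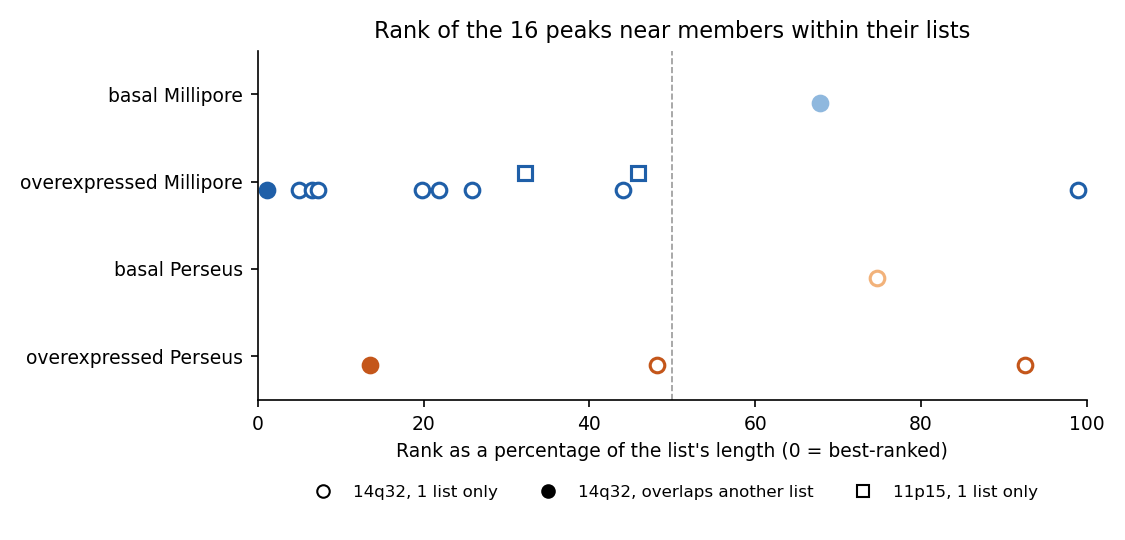
Rank of each of the 16 peaks as a percentage of the length of its list (x axis, 0 is the best rank), with 1 line for each list, squares for 11p15, circles for 14q32 and filled symbols for peaks that overlap another list. The overexpressed Millipore peaks lay from 1.17% to 98.9%, with 10 of 11 in the better-ranked part, and the basal peaks were at 67.8% and 74.7%.

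Sharing between lists was compared with that of all peaks. The basal Millipore peak near the members overlapped another list, as did 20.9% of that list. In overexpressed Millipore 1 of 11 did (9.09%, Clopper-Pearson interval 0.23 to 41.3%), beside 16.6% of the list. In basal Perseus 0 of 1 did, beside 37.7%, and in overexpressed Perseus 1 of 3 did, beside 37.9%. All of the sharing came from the site before DLK1. With 1 to 11 peaks a list the intervals of all 4 shares included the background.

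The strict SF-1 consensus was found in 0 of 1 basal Millipore, 3 of 11 overexpressed Millipore, 0 of 1 basal Perseus and 0 of 3 overexpressed Perseus peaks. Over all peaks of these lists the shares were 16%, 10.9%, 21.6% and 17.2%. With 1 mismatch the counts were 0, 7, 0 and 2, beside 34.6%, 42.2%, 44.7% and 46.8% of all peaks. With 50 bp added on each side of a peak they were 1, 3, 1 and 1, beside 20.5%, 14.6%, 28.7% and 24%. The shared site before DLK1 accounted for 3 of these 6 matches, all to the same 9 bases. No peak near the members held the NRSF/REST consensus, found in 0.181% to 1.12% of the peaks of a list, or a CTCF-type sequence, found in 0.182% to 0.537%. A match describes letters in the window and does not show that the factor was bound.

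Other genes of the same domains and of the same pathway were counted by the same rule. Neighbours among them share peaks, so the intervals, which treat genes as separate, are too narrow. They were described by counts, with no test. Of 20 other genes of the 11p15 domain, 2, 9, 2 and 2 had a peak in the 4 lists, which was 10%, 45%, 10% and 10% beside the 29.7%, 55.5%, 41.4% and 45.1% of all genes. In basal Perseus and overexpressed Perseus the interval of the share, 1.23 to 31.7%, lay below the background. In basal Millipore the same interval included the 29.7% of all genes but lay below the 36.5% of protein-coding genes. Most of the 20 genes lay inside the peak-free stretch chr11:1973750-3021600, which was picked for holding no peak. They are therefore not separate cases, and the low share largely restates that stretch. LSP1, with 1, 8, 2 and 1 peaks, and TNNT3, a skeletal muscle troponin gene with 1, 7, 2 and 1, shared the place that all 4 lists held. MRPL23 had 0, 4, 0 and 0. INS, the insulin gene, TH, for tyrosine hydroxylase, ASCL2, a trophoblast transcription factor, and KCNQ1, a potassium channel gene, had 0 in every list. PHLDA2, a placental growth restrictor, had 0, 1, 0 and 0.

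Of 9 other genes of the 14q32 domain, 0, 7, 2 and 5 had a peak, or 0%, 77.8%, 22.2% and 55.6%, and the interval of each share included the background of all genes. In basal Millipore the interval (0 to 33.6%) ended below the 36.5% of protein-coding genes, though the group also holds non-coding genes. MEG8, a further maternally expressed non-coding RNA, had 0, 6, 0 and 2 peaks. RTL1, a paternally expressed gene derived from a retrotransposon, had 0, 4, 0 and 2. WDR25 and WARS1, at the other edge of the domain, each had 0, 0, 1 and 2. DIO3, which inactivates thyroid hormone, had 0, 1, 0 and 0.

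Genes of IGF signalling, the pathway through which IGF2 acts, were counted as well. Of 17 genes 2, 15, 8 and 10 had a peak, or 11.8%, 88.2%, 47.1% and 58.8%. The share in overexpressed Millipore (63.6 to 98.5%) lay above the 55.5% of all genes and the other 3 intervals included the background. Among protein-coding genes alone, which all 17 are, the background was 36.5%, 67.9%, 52.6% and 56.7%, and the overexpressed Millipore interval then included it while the basal Millipore one (1.46 to 36.4%) ended just below it. In the better-ranked 50% of overexpressed Millipore 7 of the 17 genes had a peak, beside 37.5% of all genes. IRS2, an adaptor of insulin and IGF receptors, had the most peaks, 2, 8, 7 and 6. IGF1R, the receptor that signals for IGF1 and IGF2, had 1, 3, 1 and 2. IGFBP6, a binding protein that prefers IGF2, had 0, 6, 4 and 3, and IGFALS, the subunit that stabilises circulating IGF complexes, had 0, 6, 2 and 3. IGF2R, which clears IGF2 from the cell surface, had 0, 2, 0 and 0, and IRS1 had 0 in every list.

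Of 25 imprinted genes elsewhere in the genome, 10, 17, 14 and 17 had a peak, or 40%, 68%, 56% and 68%. Only in overexpressed Perseus did the interval (46.5 to 85.1%) lie above the background of all genes, and it included the 56.7% of protein-coding genes. BLCAP had 1, 2, 1 and 2 peaks, SGCE 1, 1, 1 and 3, and MAGEL2 and MKRN3, which are neighbours in the Prader-Willi region, each had 1, 2, 1 and 1.

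**Figure D5:**
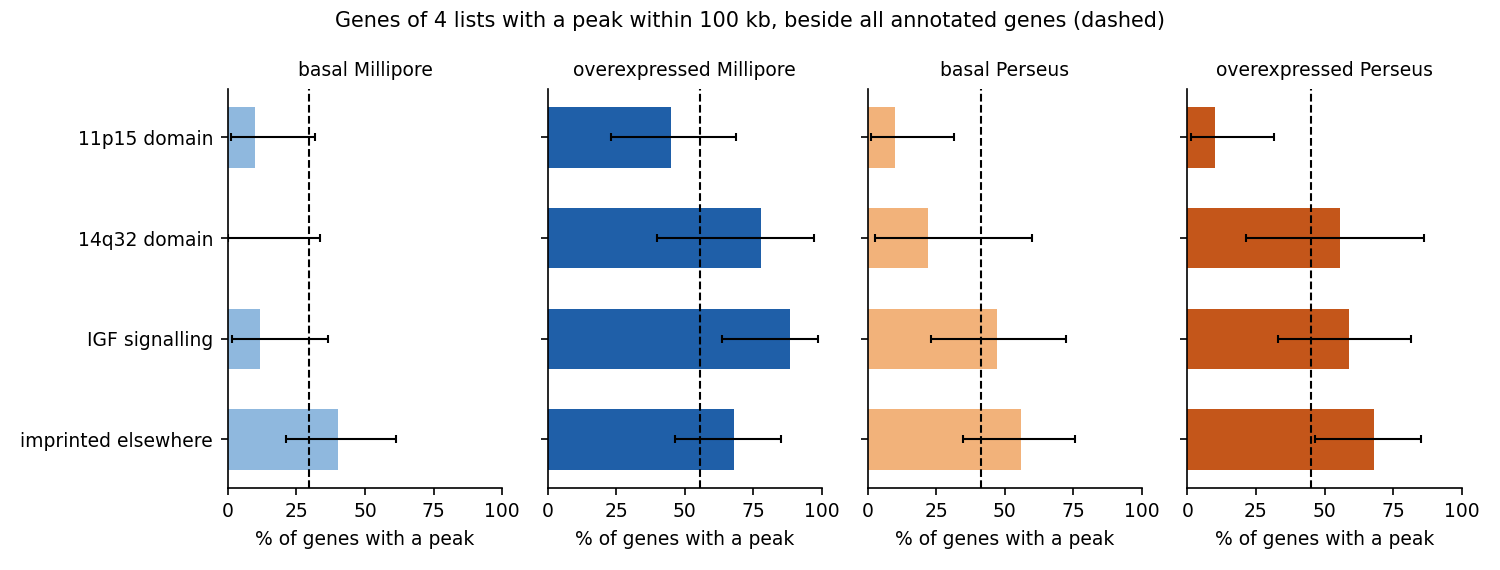
Share of genes with an SF-1 peak within 100 kb (x axis, %) for 4 gene groups, with 1 panel for each peak list, bars with 95% Clopper-Pearson intervals and a dashed line for all annotated genes. The 11p15 domain lay below the dashed line in every panel, and IGF signalling reached 88.2% in overexpressed Millipore.

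Likeness of the 4 peak counts was measured as the summed absolute difference over the 4 lists, among the genes of these groups. The nearest to DLK1 were MEG8 at 2, IGF1R, IGFALS and TNNT3 at 3, and BLCAP at 4. The nearest to MEG3 were LSP1 at 4, IGFALS and TNNT3 at 5, MEG8 at 6 and IGF1R at 7. Part of the likeness to MEG8 comes from peaks that lie within 100 kb of both genes.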

How the data were processed

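SF-1 ChIP-seq peaks were compared in 4 groups (2 dosages by 2 antibodies) of H295R/TR SF-1 cells, grouped by the titles of the samples. Per the methods of the study, the authors aligned reads with ELAND and called peaks with CisGenome SeqPeak from the triplicate samples of each condition with input DNA as the control, and the submitters' processing notes name CASAVA 1.6 and the build hg19. The deposited lists gave the position of every peak and its rank, of which the authors do not state the ranked quantity. The score column as deposited holds 1000 throughout and was not used. Starts fell on a grid of 50 bp. Each list covers 3 libraries, and how they were combined is not given in the sources used here. The input DNA has no list among those used here.

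Bodies of genes came from GENCODE version 44 mapped to GRCh37. A peak belonged to a gene when its centre lay within 100 kb of the body. An overlap of 1 bp or more counted as shared. Motifs were searched on both strands, with 4 mismatches allowed in NRSF/REST. Intervals are exact Poisson or Clopper-Pearson at 95%. All annotated genes or all peaks of the list were the background. All peaks near the members were named, and genes of the other groups by the number of lists and of peaks. The members and the gene groups were chosen with earlier results of these data known. Promoter sequences of RefSeq were matched to GRCh37 for MEG3 and H19, the 2 members found in the table (build GRCh38.p14). Counting was tested on simulated data. Python 3.11.15, numpy 2.4.6, pandas 2.3.3, scipy 1.17.1 and matplotlib 3.10.9 were used. Alternatives changed the distance, the peaks kept, the overlap, the motif and the body of the gene.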

Additional observations from a re-analysis of the deposited data

How the results depend on the processing

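The 36 counts of members with a peak, regions, sharing, consensus and gene groups were set beside 14 alternatives. Of 184 values 149 stayed within 1.5 times the reported count and 35 did not. Peak counts of single genes were varied too but are left out of this tally, and some moved. MEG3 in overexpressed Millipore went from 9 to 4 at 50 kb, and H19 had 1, 8, 2 and 1 in the 4 lists at 200 kb. Others did not move, such as DLK1 in overexpressed Millipore with 5 at 50 kb. Taking protein-coding genes as the background changed only the background share. Its group counts were thus the same in advance, and they are among the 149. At 50 kb, members with a peak fell to 1 in basal Millipore and 1 in basal Perseus. The 11p15 group then had 1 gene with a peak in basal Millipore, 1 in basal Perseus and 1 in overexpressed Perseus, IGF signalling 1 and imprinted genes elsewhere 3 in basal Millipore, and the 14q32 group 4 in overexpressed Millipore, while the share of all genes fell to 18.6%, 40.7%, 28.8% and 31.9% in the 4 lists. At 200 kb, members with a peak rose to 5 in overexpressed Millipore and the peaks at 11p15 to 1, 9, 2 and 1 in the 4 lists, 1 of them in each list at the place 152 kb from H19. In the better-ranked 50% of each list, members with a peak, the peaks at 14q32 and the shared peaks fell to 0 in basal Millipore, and members with a peak and the peaks at 14q32 fell to 0 in basal Perseus. IGF signalling then had 1 gene with a peak in basal Millipore, 7 in overexpressed Millipore and 6 in overexpressed Perseus, the 11p15 group 4 in overexpressed Millipore and 0 in overexpressed Perseus, and imprinted genes elsewhere 8 in basal Perseus and 11 in overexpressed Perseus, beside 17%, 37.5%, 26.2% and 28.5% of all genes in the 4 lists. With every list cut to the 4393 peaks of the shortest, members with a peak and the peaks at 14q32 fell to 0 in basal Perseus and the peaks at 11p15 to 1 in overexpressed Millipore. With centres within 500 bp counted as shared, 2 peaks were shared in overexpressed Millipore and 2 in overexpressed Perseus. The neighbouring peaks of these lists in MEG3 introns then met. With 1 mismatch in the SF-1 consensus, 7 overexpressed Millipore and 2 overexpressed Perseus peaks held it, and with 50 bp added 1 did in basal Millipore, 1 in basal Perseus and 1 in overexpressed Perseus. Where no value shows it, the cause was not tested. Measuring from the main transcript in place of the body was chosen after seeing the data and moved no count of peaks. The main transcripts of H19, KCNQ1OT1, CDKN1C and MEG3 began where the body did, so this could move little. The RefSeq start of MEG3 was not among the alternatives. No paired analysis was possible because each group was 1 list made from 3 libraries, and for the same reason no library could be left out. Read depth is unknown, and the members had 0 or 1 peak each in the basal lists.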
